A study of Mus musculus with 24 samples.

Results

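The genes described here are the insulin-like growth factor *Igf1*, its receptor *Igf1r*, the insulin receptor *Insr*, the shared adaptor *Irs1* and 6 IGF binding proteins, *Igfbp2* to *Igfbp7*. They were the rows of the expression table whose symbol was one of these names, 10 of the 49452 genes listed. All 10 were present, and none of their 240 values (10 genes in 24 libraries) was listed at 0.

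The study asked how silencing of *H19*, an imprinted long intergenic non-coding RNA, changes gene expression in precursor cells of brown and white fat. Stromal vascular fractions, the cells left after mature fat cells are removed from adipose tissue, were taken from male C57BL/6 mice aged 6 to 8 weeks. They came from interscapular brown fat (BAT) or epididymal, that is visceral white, fat (vWAT), and BAT was pooled between animals where needed. Each culture received by nucleofection either a non-targeting siRNA (siCtrl, named siKO in the sample titles) or siRNA against *H19* (siH19), and RNA was sequenced before induction (d0) or on day 3 of differentiation (d3). The knockdown titles all read siH19_3, a name the paper uses for a separate siRNA. Whether these libraries rest on a single oligo is still not certain. Effects of the siRNA other than on *H19* cannot be told apart from those of its loss. The 8 groups are thus BAT siCtrl d0, BAT siH19 d0, BAT siCtrl d3, BAT siH19 d3 and the same 4 for vWAT, with 3 libraries each. All cultures were transfected, and those of d3 had been induced for 48 h with insulin and dexamethasone. To these were added IBMX and rosiglitazone in vWAT and indomethacin and triiodothyronine in BAT (the sources differ on IBMX in BAT), and afterwards vWAT cultures were kept in rosiglitazone and BAT cultures in triiodothyronine. At d3, after induction, depot therefore coincided with the medium. At both days it coincided with the series of library names and with the relative depth read from low values (0.84 to 1 in BAT, 1.03 to 1.19 in vWAT). These cannot be told apart from depot. Day coincided with exposure to insulin, dexamethasone and the other additions and with time since transfection. Differentiation, these additions and time cannot be told apart either. Nothing says whether the 3 libraries of a group came from separate animals, so p-values measure the spread between these libraries, which may be technical.

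Values are FPKM, fragments mapped to a gene scaled to its transcript length and to the size of the library, and can be compared between genes because they are per length. Column sums ran from 710794 to 841456, and 12311 to 13125 genes per library reached 1 FPKM. Total fragment numbers are unknown, so no counting error can be given. The targeted *H19* was lower in every siH19 library than in every siCtrl library of its depot and day (2.82 to 5.20 against 108 to 160 FPKM in BAT d0, 12.04 to 16.9 against 83.2 to 99.7 in BAT d3, 0.630 to 1.76 against 11.3 to 12.3 in vWAT d0 and 0.291 to 0.966 against 8.19 to 8.90 in vWAT d3). Markers of the labelled cell fraction were present: the summed FPKM of 7 fibroblastic precursor markers was 12180 to 13040 in BAT and 10390 to 11040 in vWAT siCtrl cultures at d0. The sum of 4 lymphocyte markers was at most 0.611 in any library, and the 5 macrophage markers summed to 128 to 160 in BAT and 273 to 304 in vWAT at d0. Such sums, here and below, mostly follow the most abundant marker of a list. This was *Col3a1* for precursors, *Lyz2* for macrophages, *Acta2* for mural cells and *Fabp4* for adipocytes. In bulk RNA, fewer cells of a type and less RNA per cell cannot be told apart.

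Insulin and IGF1 act through closely related receptor tyrosine kinases, which phosphorylate IRS adaptors and so switch on phosphoinositide 3-kinase and AKT. Fat cell precursors are known to respond to insulin largely through the IGF1 receptor, whereas mature adipocytes carry many insulin receptors. IGF binding proteins are secreted carriers that hold IGFs outside the cell and either limit or prolong their access to the receptor, and proteases such as pregnancy-associated plasma protein A (*Pappa*) free the ligand by cutting them.

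The 10 genes spanned more than 3 orders of magnitude in level. *Igfbp7* (324 to 1393 FPKM over the 24 libraries), a secreted protein with low affinity for IGFs, and *Igfbp4* (232 to 1416), an inhibitor of IGF action, were the most abundant. *Igfbp6* (27.6 to 351), which prefers IGF2, *Igfbp3* (10.2 to 386), the main IGF carrier in serum, and *Igf1* itself (20.7 to 194) came next. *Igfbp2* (3.70 to 53.5), the receptors *Insr* (3.73 to 28.5) and *Igf1r* (1.91 to 15.2), and *Irs1* (1.12 to 4.30) were lower, and *Igfbp5*, a binding protein that also attaches to extracellular matrix, reached 1 FPKM in only 13 of the 24 libraries (0.508 to 3.61). The highest group mean exceeded the lowest 35.7-fold for *Igfbp3*, 11.5-fold for *Igfbp6*, 10.8-fold for *Igfbp2* and 7.96-fold for *Igf1*, against 5.73-fold for *Igfbp4*, 5.55-fold for *Igf1r*, 4.94-fold for *Igfbp5*, 4.78-fold for *Insr*, 4.09-fold for *Igfbp7* and 3.23-fold for *Irs1*.

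**Figure D1:**
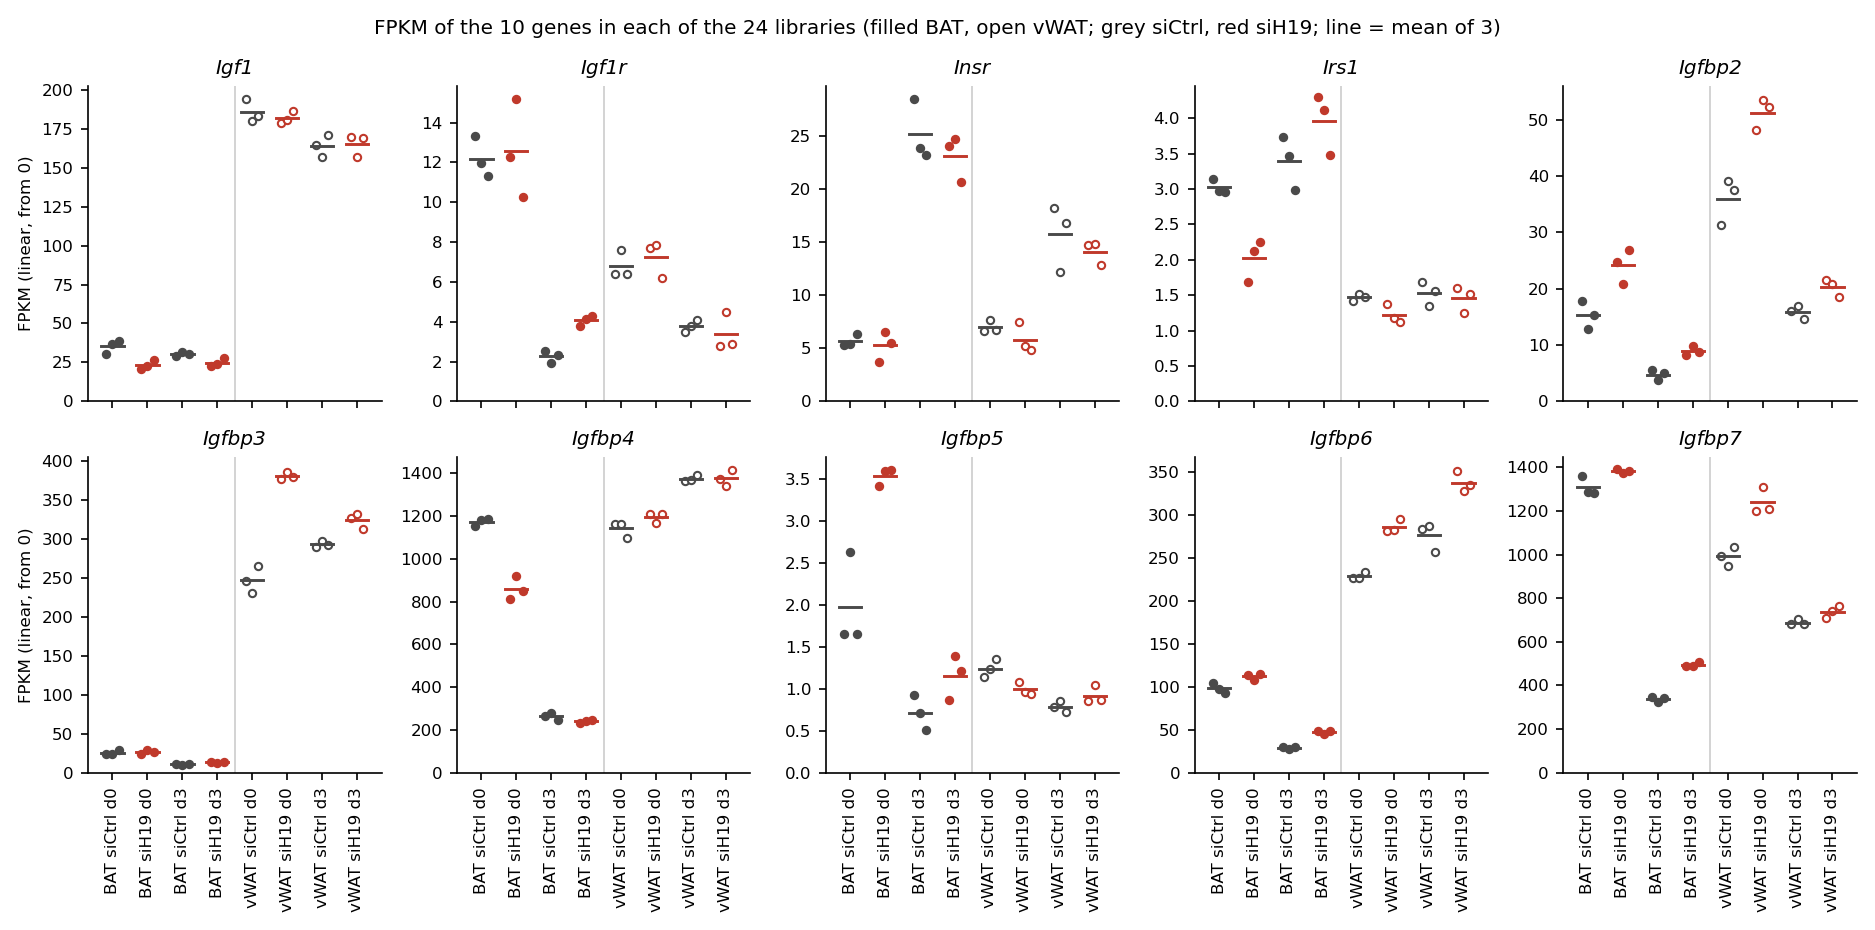
FPKM (linear axis from 0) of each of the 10 genes in the 24 libraries, in 8 groups of 3; filled points are BAT, open points vWAT, grey siCtrl and red siH19, and lines are means of 3. *Igf1*, *Igfbp3* and *Igfbp6* separate the depots at both days, whereas *Insr* and *Igf1r* separate d0 from d3 within each depot.

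Ordered by mean, the 8 groups formed blocks of depot or day for most genes, whereas *Igfbp2*, *Igfbp4* and *Igfbp5* interleaved the depots. For *Igf1*, the 4 vWAT groups (164 to 186 FPKM) stood above the 4 BAT groups (23.3 to 35.5), and 3 of the 7 pairs of neighbours in the order had ranges that did not overlap. *Insr* put the 4 d3 groups first, BAT (25.2 and 23.1 FPKM) above vWAT (15.7 and 14.1), and the 4 d0 groups last (5.26 to 7.003), with 2 of 7 neighbouring pairs apart. *Igf1r* ran the other way, from BAT d0 (12.6 and 12.2 FPKM) through vWAT d0 (7.26 and 6.80) to the d3 groups, of which BAT siCtrl (2.26) was lowest and did not overlap its neighbour. *Igfbp3*, *Igfbp6* and *Igfbp7* were resolved best, with 6 of 7 neighbouring pairs apart each, followed by *Igfbp2* with 5. *Igfbp4* and *Igf1r* each had 3 pairs apart, and *Irs1* and *Igfbp5* each had 2.

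The first comparison asks how these genes differed between control cells before induction (d0) and induced control cells at d3. In BAT siCtrl cultures, *Insr* rose and *Igf1r* and all 6 binding proteins fell from d0 to d3, while neither *Igf1* nor *Irs1* passed the test. A gene was called when its Benjamini-Hochberg adjusted p from limma was under 0.05 and its change on the log2(FPKM + 1) scale was at least 1.3-fold. By that rule 8 of the 10 genes were called, 1 higher and 7 lower, where 65.2% of all genes tested were called, 29.9% higher and 35.3% lower. *Igfbp5* is among the 7. A gene was tested if at least 3 of the libraries compared reached 1 FPKM, and *Igfbp5* did so only at d0. It was 1.65 to 2.63 FPKM there and 0.508 to 0.931 at d3, so this filter favoured a lower call, which is no support. The median log2 difference of the 10 genes was -1.35, against -0.10 over all genes tested. In the same 8 genes the libraries of d0 and d3 did not overlap, which held for 79.3% of all genes.

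*Insr* was 5.35, 5.45 and 6.36 FPKM in the 3 BAT siCtrl libraries at d0 and 28.5, 23.8 and 23.2 at d3. *Igf1r* was 13.3, 11.96 and 11.3 FPKM at d0 and 2.54, 1.91 and 2.34 at d3. Each d3 library thus lay far outside the range of d0, in opposite directions for the 2 receptors, with log2 differences of 1.96 (SE 0.10, adjusted p = 3.66e-06, limma) for *Insr* and -2.02 (SE 0.10, adjusted p = 3.51e-06, limma) for *Igf1r*. *Igfbp4* was 1154, 1183 and 1187 FPKM at d0 and 267, 281 and 245 at d3. *Igfbp7* was 1361, 1288 and 1282 FPKM at d0 and 347, 324 and 343 at d3. These most abundant binding proteins both fell by about 2 log2 units, with log2 differences of -2.15 (SE 0.05, adjusted p = 1.24e-07, limma) and -1.95 (SE 0.04, adjusted p = 7.72e-08, limma). *Igfbp6* fell from a mean of 98.8 to 29.3 FPKM, *Igfbp2* from 15.2 to 4.77, *Igfbp3* from 25.8 to 10.7 and *Igfbp5* from 1.98 to 0.718, with log2 differences of -1.72, -1.50, -1.20 and -0.79. *Igf1* averaged 35.5 ± 4.31 FPKM at d0 and 30.4 ± 1.43 at d3 (SD, n = 3), and *Irs1* 3.02 ± 0.10 and 3.40 ± 0.38, so that their ranges overlapped.

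In vWAT the receptors moved the same way by less, and the abundant binding proteins did not fall together. There 4 of 10 genes were called, 1 higher and 3 lower, where 50.3% of all genes were called, 26.3% higher and 23.9% lower. *Insr* was 6.67, 7.64 and 6.71 FPKM at d0 and 18.2, 12.1 and 16.8 at d3 (log2 difference 1.05, SE 0.15, adjusted p = 0.000851, limma). *Igf1r* was 6.38, 7.61 and 6.41 FPKM at d0 and 3.48, 3.77 and 4.08 at d3 (log2 difference -0.70, SE 0.10, adjusted p = 0.000662, limma). For both receptors no d3 library overlapped d0. *Igfbp2* fell from a mean of 36.0 to 15.9 FPKM (log2 difference -1.12) and *Igfbp7* from 991 to 689 (log2 difference -0.52). *Igfbp3* (247 to 293 FPKM), *Igfbp4* (1143 to 1375) and *Igfbp6* (229 to 277) had log2 differences of 0.25, 0.27 and 0.27, and *Igf1* and *Igfbp5* of -0.18 and -0.33. These 5 had adjusted p of 0.000486 to 0.0138 from limma but were under 1.3-fold. Without the minimum fold 9 of 10 pass, where 8788 of all 13368 genes tested do. The groups did not overlap in those 9, against 71.2% of all genes. Here too *Igfbp5* passed the filter only through d0 (1.14 to 1.35 FPKM, against 0.719 to 0.852 at d3). The median log2 difference of the 10 genes was -0.07, against 0.01 over all genes tested.

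Whether the change with day differed between depots was tested directly by the interaction of depot and day in the 12 siCtrl libraries. It was called (adjusted p under 0.05) for 6 of 10 genes, 1 higher and 5 lower in BAT, where 53% of all genes were called (24.9% higher, 28.1% lower). *Insr* rose by 0.91 log2 units more in BAT (SE 0.19, adjusted p = 0.00225, limma). *Igfbp4* changed by -2.42, *Igfbp6* by -1.99, *Igfbp3* by -1.45, *Igfbp7* by -1.43 and *Igf1r* by -1.31 log2 units relative to vWAT. *Igfbp2* (-0.37), *Igfbp5* (-0.46, called without BAT siCtrl d0 replicate 1 or 3 or d3 replicate 1, at -0.53, -0.53 and -0.55), *Igf1* (-0.03) and *Irs1* (0.09) were not called. Precursor markers moved alongside: the 7 fibroblastic precursor markers were all lower at d3 in BAT, their sum going from 12180 to 13040 down to 2622 to 2916 FPKM. In vWAT 1 was higher and 3 were lower, and the sum was 10390 to 11040 at d0 and 10070 to 11100 at d3. Most of the vWAT sum was *Col3a1* (7488 to 8071 FPKM at d0 and 7969 to 8904 at d3). *Dlk1* in vWAT went from 45.2 to 60.8 down to 10.1 to 10.9 FPKM. All 7 adipocyte markers were higher at d3 in both depots, summing to 3135 to 3408 and then 37580 to 39280 FPKM in BAT, and to 4087 to 4095 and then 19220 to 20210 in vWAT. The 5 mural markers summed to 1399 to 1558 at d0 and 245 to 328 at d3 in BAT, and 504 to 579 and 425 to 512 in vWAT. The part of these cell type markers in the result was not tested.

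**Figure D2:**
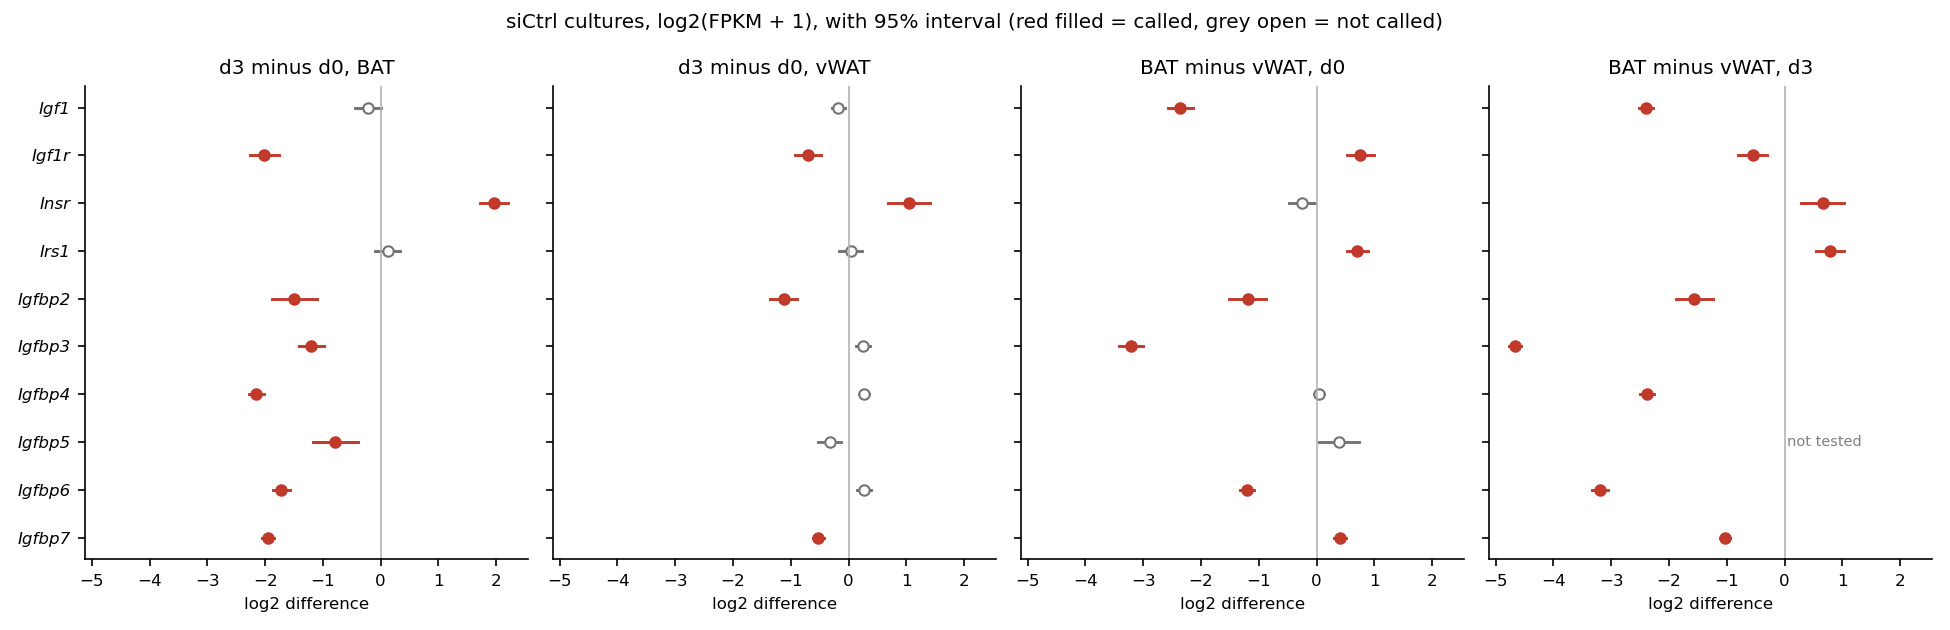
Differences in log2(FPKM + 1) in siCtrl cultures, as points with 95% intervals (n = 3 against 3), for d3 minus d0 in BAT and in vWAT and for BAT minus vWAT at d0 and at d3; red filled points were called, grey open points were not. In BAT all 6 binding proteins lie left of 0 at d3, whereas in vWAT *Igfbp3*, *Igfbp4* and *Igfbp6* lie at 0.25 to 0.27.

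*Igf1r*, *Igfbp2* and *Igfbp7* were called lower at d3 in both depots, and *Igfbp3*, *Igfbp4*, *Igfbp5* and *Igfbp6* in BAT and not in vWAT, and the start sites of these 7 genes are shown side by side. Each line is 250 bases before and 50 bases after a RefSeq transcript start in GRCm38.p6, read 5′ to 3′ on the gene's strand, with matches on either strand in capitals. The GC box was searched as GGGCGG. The TATA box was searched as TATAAA, and the last motif, the CCAAT box, by the letters of its name.
*Igf1r*, chr7:67952007-67952306, plus strand: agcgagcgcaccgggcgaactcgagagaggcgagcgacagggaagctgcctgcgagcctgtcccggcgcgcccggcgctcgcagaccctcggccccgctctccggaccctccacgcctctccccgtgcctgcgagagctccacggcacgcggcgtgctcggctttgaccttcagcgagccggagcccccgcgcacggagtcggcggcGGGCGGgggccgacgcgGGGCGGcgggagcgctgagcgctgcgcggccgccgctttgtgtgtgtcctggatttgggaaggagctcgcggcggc
*Igfbp2*, chr1:72824230-72824529, plus strand: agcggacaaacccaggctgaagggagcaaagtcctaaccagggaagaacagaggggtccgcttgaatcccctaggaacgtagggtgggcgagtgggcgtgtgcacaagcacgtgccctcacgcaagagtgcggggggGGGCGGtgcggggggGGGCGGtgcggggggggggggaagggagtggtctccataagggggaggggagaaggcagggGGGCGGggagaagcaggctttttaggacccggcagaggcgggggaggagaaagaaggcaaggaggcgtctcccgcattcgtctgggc
*Igfbp7*, chr5:77407996-77408295, minus strand: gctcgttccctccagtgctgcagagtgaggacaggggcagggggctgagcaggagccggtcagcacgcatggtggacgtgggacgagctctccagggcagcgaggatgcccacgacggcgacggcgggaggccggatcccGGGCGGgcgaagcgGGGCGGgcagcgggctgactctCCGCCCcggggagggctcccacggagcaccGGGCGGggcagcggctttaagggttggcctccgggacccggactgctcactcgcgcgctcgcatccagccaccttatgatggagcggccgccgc
*Igfbp3*, chr11:7213874-7214173, minus strand: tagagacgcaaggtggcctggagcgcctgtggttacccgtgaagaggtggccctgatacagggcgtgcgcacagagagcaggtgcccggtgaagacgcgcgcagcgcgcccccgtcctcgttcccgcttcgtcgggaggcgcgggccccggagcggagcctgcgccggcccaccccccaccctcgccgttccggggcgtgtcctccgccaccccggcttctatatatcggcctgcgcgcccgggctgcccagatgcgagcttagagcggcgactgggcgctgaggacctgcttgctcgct
*Igfbp4*, chr11:99040994-99041293, plus strand: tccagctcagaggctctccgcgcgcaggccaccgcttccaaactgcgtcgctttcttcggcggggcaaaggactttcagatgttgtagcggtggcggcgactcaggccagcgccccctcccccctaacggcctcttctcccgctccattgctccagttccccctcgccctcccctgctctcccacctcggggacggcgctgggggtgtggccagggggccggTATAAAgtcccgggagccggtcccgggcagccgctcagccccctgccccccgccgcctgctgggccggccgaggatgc
*Igfbp5*, chr1:72874816-72875115, minus strand: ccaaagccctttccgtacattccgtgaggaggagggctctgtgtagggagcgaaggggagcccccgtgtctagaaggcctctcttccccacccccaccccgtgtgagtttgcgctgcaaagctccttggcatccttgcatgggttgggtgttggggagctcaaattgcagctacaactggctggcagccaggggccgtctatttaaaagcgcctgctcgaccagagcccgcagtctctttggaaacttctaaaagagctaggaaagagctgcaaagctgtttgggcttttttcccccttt
*Igfbp6*, chr15:102143936-102144235, plus strand: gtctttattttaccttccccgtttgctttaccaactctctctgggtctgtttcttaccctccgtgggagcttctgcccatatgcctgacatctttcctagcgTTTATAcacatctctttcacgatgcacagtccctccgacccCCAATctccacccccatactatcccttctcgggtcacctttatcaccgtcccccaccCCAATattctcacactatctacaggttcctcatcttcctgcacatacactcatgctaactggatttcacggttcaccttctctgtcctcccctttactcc

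There were 2 GC boxes for *Igf1r*, 3 for *Igfbp2* and 4 for *Igfbp7*, all without TATAAA. The letters TATAAA occurred once for *Igfbp4*, shortly before the start. For *Igfbp6* they occurred once on the opposite strand (TTTATA) and well before the start, which is not the usual place of a TATA box. Both windows lacked GGGCGG. *Igfbp3* and *Igfbp5* held neither string, but the stretches ctatatatcgg in *Igfbp3* and ctatttaaaagc in *Igfbp5* resemble a TATA box and an exact search leaves them unmarked. The 4 genes called in BAT and not in vWAT are set apart by thresholds. *Igfbp5* also fell in vWAT, under 1.3-fold, and its interaction of depot and day was not called, whereas those of *Igf1r* and *Igfbp7* were. Nothing is read from these windows about the depots. *Irs1*, which was called at neither change with day, also held 2 GC boxes, and a second *Igfbp2* window held none. Of 32851 promoter windows of this length, 35.7% held GGGCGG, 13.6% TATAAA and 37.4% CCAAT. The *Igf1r* window was 76% G and C, above 96.9% of all windows, and that of *Igfbp6* 49.7%, against a median of 52.7%. The letters GTAAACA (FOXO; 3.65% of windows) and TTGCNNAA (C/EBP; 10.8%) were in none of the 10 windows of the 9 genes with an entry; *Insr* had none. The RefSeq start lay 570 bases before the Ensembl gene start for *Igf1r* and 176 for *Igfbp6*, so these windows may not be the start used in these cells. A match is a string of letters and says nothing about binding.

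The second comparison asks how the control cultures of the depots differed. BAT cells had much less *Igf1*, *Igfbp3*, *Igfbp6* and *Igfbp2* than vWAT cells at both days and more *Irs1*, while *Igf1r* was higher in BAT at d0 and lower at d3. At d0, 7 of 10 genes were called, 3 higher and 4 lower in BAT, where 31.2% of all genes were called, 10.2% higher and 21% lower. At d3, 9 of 9 genes tested were called, 2 higher and 7 lower, where 48.6% of all genes were, 16.5% higher and 32.1% lower; *Igfbp5* was below the filter. The groups did not overlap in 9 genes at each day, against 58.8% and 70.4% of all genes. The median log2 difference of the genes tested was -0.11 at d0 and -1.56 at d3, against -0.13 and -0.16 over all genes.

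*Igf1* was 30.6, 37.1 and 38.8 FPKM in BAT and 194, 180 and 183 in vWAT at d0, and 28.9, 31.8 and 30.5 against 165, 157 and 171 at d3. The log2 differences were -2.36 (SE 0.09, adjusted p = 5.45e-06, limma) and -2.39 (SE 0.05, adjusted p = 4.16e-07, limma), nearly the same at both days. *Igfbp3* was 24.4, 23.9 and 29.2 FPKM in BAT and 246, 231 and 265 in vWAT at d0. At d3 it was 10.9, 10.2 and 10.9 FPKM in BAT and 290.1, 298 and 293 in vWAT, the widest gap among the 10 genes, with a log2 difference of -4.66 (SE 0.04, adjusted p = 3.99e-08, limma). *Igfbp6* (-1.21 at d0, -3.19 at d3) and *Igfbp2* (-1.19, -1.56) were also lower in BAT at both days. *Igfbp4* overlapped at d0 (1175 and 1143 FPKM, log2 difference 0.04, interval -0.04 to 0.12) and was lower in BAT at d3 (264 and 1375 FPKM, log2 difference -2.38). *Igfbp7* was higher in BAT at d0 (log2 difference 0.40) and lower at d3 (-1.03). Its call at d0 sat near the 1.3-fold minimum and was lost without BAT siCtrl replicate 1 (0.38) or vWAT siCtrl replicate 2 (0.37).

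Among the receptors, *Igf1r* differed by 0.76 log2 units at d0 and -0.55 at d3, and *Insr* by -0.25 at d0 (not called, adjusted p = 0.0606, limma) and 0.66 at d3. *Irs1* was higher in BAT by 0.71 and 0.79 log2 units, at 2.96 to 3.14 against 1.42 to 1.51 FPKM at d0 and 2.99 to 3.73 against 1.35 to 1.68 at d3. Its values are uncertain, since 2822 of its exonic bases overlap *Gm9747* on the opposite strand (1.97 to 11.98 FPKM) and the counting is not stated to use strand. Trimmed-mean (TMM) scaling moved the median of all genes in the depot comparisons from -0.13 to -0.01 at d0 and from -0.16 to -0.01 at d3, and the split of all genes called from 1343 higher and 2753 lower to 1868 and 1916 at d0, and from 2162 and 4216 to 2990 and 3200 at d3. Under it every direction given above stayed, with *Igfbp3* at -3.08 and -4.49 and *Igf1* at -2.23 and -2.23. Mesothelial markers, which belong to the lining of visceral fat, summed to 114 to 132 FPKM in vWAT and 5.14 to 5.92 in BAT at d0 and to 39.1 to 45.4 and 1.36 to 3.44 at d3, with all 5 at 1 FPKM or more in vWAT and 1 in BAT. Myogenic markers summed to 14.4 to 24.2 FPKM in BAT and at most 0.0648 in vWAT at d0. At d3, 6 of 7 fibroblastic precursor markers (2622 to 2916 against 10070 to 11100 FPKM) and 4 of 4 macrophage markers tested (125 to 157 against 458 to 500.4 FPKM) were lower in BAT. All 7 adipocyte markers (37580 to 39280 against 19220 to 20210 FPKM) and all 6 brown adipocyte markers (503 to 556 against 120.4 to 135.5 FPKM) were higher in BAT. Most of the brown sum was *Elovl3* (431 to 491 against 114 to 130 FPKM). *Ucp1*, *Cidea* and *Prdm16* passed the filter only through BAT, which favoured a higher call. In vWAT *Ucp1* was 0, *Cidea* at most 0.120 and *Prdm16* 0.371 to 0.943 FPKM. At d0, 4 of 5 macrophage markers (128 to 160 against 273 to 304 FPKM) and 2 of 7 adipocyte markers were lower in BAT, and of 7 precursor markers 2 were higher and 3 lower. Their part in the depot differences was not tested.

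Summing the 6 binding proteins shows how the pool of transcripts changed. In BAT siCtrl cultures the sum went from 2664, 2609 and 2608 FPKM at d0 to 661, 647 and 635 at d3, 0.247 times the d0 mean. In vWAT siCtrl cultures it was 2661, 2610 and 2673 FPKM at d0 and 2635, 2677 and 2640 at d3. The sums of the depots thus overlapped at d0 (exact permutation test, two-sided p = 0.5) and did not at d3 (BAT 0.244 times vWAT; exact permutation p = 0.1, the smallest that 3 against 3 libraries allow). *Igfbp4* and *Igfbp7* made up 44.7% and 49.9% of the sum in BAT siCtrl at d0 and 40.8% and 52.2% at d3. In vWAT, *Igfbp4* had a share of 43.2% at d0 and 51.9% at d3, and *Igfbp7* went from 37.4% to 26.0%. *Igfbp3* held 9.33% and 11.1% of the sum in vWAT and 0.984% and 1.65% in BAT.

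**Figure D3:**
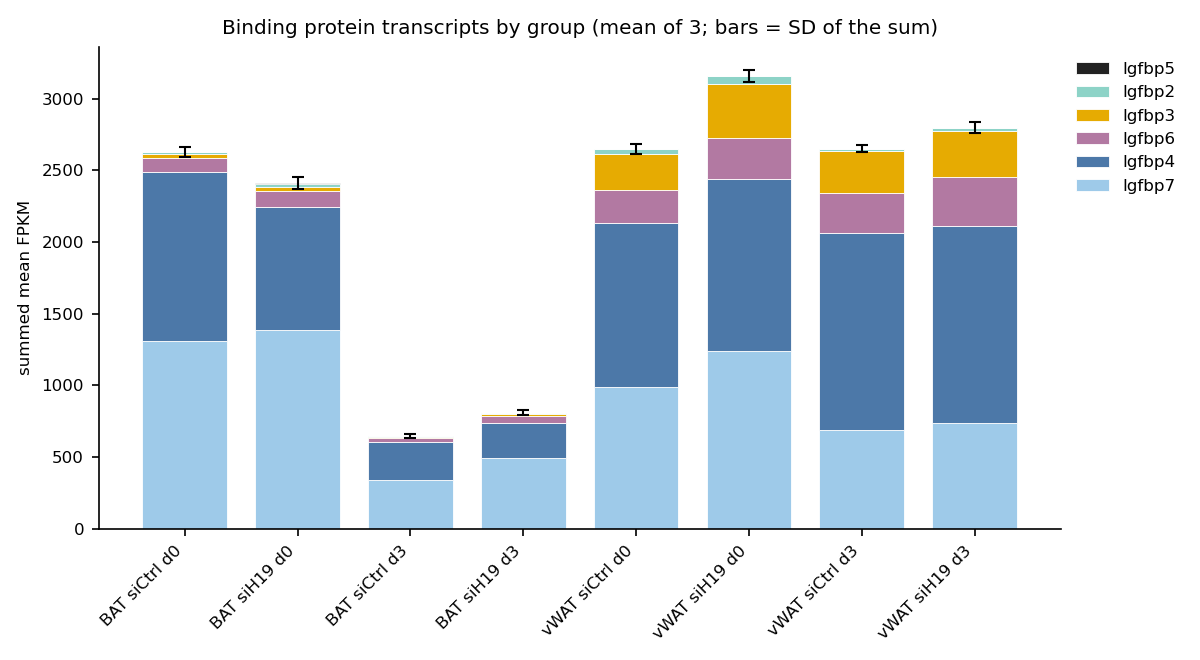
Summed mean FPKM of the 6 binding proteins in each group (stacked bars from 0, mean of 3 libraries; error bars are the SD of the sum). BAT siCtrl is at 2627 at d0 and 648 at d3, vWAT siCtrl at 2648 and 2651, and *Igfbp3* forms a visible block in the 4 vWAT groups.

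The third comparison asks what differed between siH19 and siCtrl cultures. In differentiated BAT cultures *Igf1r*, *Igfbp2*, *Igfbp6* and *Igfbp7* were higher with siH19, and none of the 9 genes tested was called lower. Elsewhere 1 gene was called in BAT at d0, 1 in vWAT at d0 and 0 in vWAT at d3. In BAT at d3, 4 of 9 genes were called, all higher, where 8.57% of all genes were called and 6.39% called higher (2.18% lower). The groups did not overlap in 6 of the 9, against 37.2% of all genes. The median log2 difference of the 9 genes was 0.28, against 0.05 over all genes tested. The BAT siCtrl d3 libraries also serve in the d3 against d0 comparison above.

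*Igf1r* was 2.54, 1.91 and 2.34 FPKM with siCtrl and 3.80, 4.13 and 4.31 with siH19 in BAT at d3 (log2 difference 0.64, SE 0.11, adjusted p = 0.0108, limma). *Igfbp6* was 30.2, 27.6 and 30.1 FPKM with siCtrl and 49.0, 45.6 and 49.1 with siH19 (log2 difference 0.69, SE 0.06, adjusted p = 0.00205, limma). In both, every siH19 library lay above every control, yet well below the d0 level of the controls. *Igfbp7* was 347, 324 and 343 FPKM with siCtrl and 491, 489 and 508 with siH19 (log2 difference 0.55, SE 0.04, adjusted p = 0.00161, limma). *Igfbp2* was 5.51, 3.70 and 5.09 FPKM with siCtrl and 8.16, 9.86 and 8.80 with siH19 (log2 difference 0.80, SE 0.14, adjusted p = 0.0134, limma). Again the ranges were apart. *Igfbp3* was 10.2 to 10.9 FPKM with siCtrl and 11.9 to 14.0 with siH19, and *Igf1* 28.9 to 31.8 and 22.6 to 28.0, ranges that were also apart, but neither was called (log2 differences 0.28 and -0.28, adjusted p = 0.0658 and 0.075, limma). *Insr* (25.2 and 23.1 FPKM, log2 difference -0.12, interval -0.36 to 0.13), *Irs1* (0.18) and *Igfbp4* (-0.13) were not called, and *Igfbp5*, at 0.508 to 0.931 and 0.866 to 1.39 FPKM, was below the filter. TMM scaling left all 4 calls in place, although it moved the split of all genes called from 799 higher and 272 lower to 625 and 425.

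Cell type markers also differed between these libraries. At d3 in BAT, 3 of the 6 fibroblastic precursor markers tested and 2 of the 3 mural markers tested were higher with siH19, with sums of 3209 to 3477 against 2622 to 2916 FPKM and 542 to 661 against 245 to 328 FPKM. Of 6 brown adipocyte markers 4 were lower (299 to 354 against 503 to 556 FPKM), as were 2 of 4 macrophage markers (78.8 to 89.8 against 125 to 157 FPKM). Most of the brown sum was *Elovl3* (278 to 306 against 431 to 491 FPKM). None of the 7 adipocyte markers was called (34250 to 36570 against 37580 to 39280 FPKM). Their part in the 4 calls was not tested.

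In BAT at d0, 1 of 10 genes was called, where 1.94% of all genes were called and 1.32% called lower. *Igfbp4* was 1154, 1183 and 1187 FPKM with siCtrl and 812, 920 and 848 with siH19 (log2 difference -0.45, SE 0.05, adjusted p = 0.0188, limma). No siH19 library reached the lowest control, but the call was lost without any of the 3 siCtrl libraries or siH19 replicate 3, with adjusted p of 0.0674, 0.0783, 0.0836 and 0.07 from limma. In 7 of the 10 genes the groups did not overlap, against 26.7% of all genes. *Igf1* was 30.6, 37.1 and 38.8 FPKM with siCtrl and 20.7, 22.8 and 26.5 with siH19, with a log2 difference of -0.58 (interval -0.87 to -0.30, adjusted p = 0.0564, limma). *Irs1* (3.02 and 2.02 FPKM, -0.42), *Igfbp2* (15.2 and 24.2 FPKM, 0.64) and *Igfbp5* (1.98 and 3.54 FPKM, 0.62) were likewise apart and not called, with adjusted p of 0.0883, 0.0647 and 0.0738 from limma. Of the 7 adipocyte markers 5 were lower with siH19 at d0, summing to 1583 to 2115 against 3135 to 3408 FPKM. Of 4 macrophage markers tested 1 was lower, with sums of 97.3 to 98.1 against 128 to 160 FPKM. None of the 5 mural markers was called (1683 to 1920 against 1399 to 1558 FPKM), and the 1 mesothelial marker tested was higher. Their part was not tested.

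In vWAT at d0, 1 of 10 genes was called, where 1.53% of all genes were called, 0.329% higher and 1.2% lower. *Igfbp3* was 246, 231 and 265 FPKM with siCtrl and 378, 386 and 380 with siH19, well apart (log2 difference 0.62, SE 0.06, adjusted p = 0.00768, limma). *Igfbp6* (229 and 287 FPKM) and *Igfbp7* (991 and 1240 FPKM) each had a log2 difference of 0.32, with adjusted p = 0.0161 and 0.0421 from limma but under 1.3-fold, and *Igfbp2* (36.0 and 51.2 FPKM, 0.50) had adjusted p = 0.0507 from limma. The groups did not overlap in 7 of 10 genes, against 24.5% of all genes. Of the 7 adipocyte markers 5 were lower (2412 to 2721 against 4087 to 4095 FPKM) and 1 of 3 mural markers was higher (717 to 856 against 504 to 579 FPKM); their part was not tested. In vWAT at d3, 0 of 9 genes were called by limma and 0 after TMM scaling, where 0.0305% of all genes were called, 0.00764% higher and 0.0229% lower. An unadjusted limma p under 0.05 was found for 4 (*Igfbp2*, *Igfbp3*, *Igfbp6* and *Igfbp7*). The share of all genes at that threshold was not taken, so nothing is read from this count. In the same 4 genes siH19 lay above siCtrl in every library, against 16.2% of all genes without overlap, and their log2 differences were 0.34, 0.14, 0.29 and 0.10. *Igf1* (164 and 165 FPKM) and *Igfbp4* (1375 and 1377 FPKM) gave intervals of -0.11 to 0.13 and -0.07 to 0.07 around log2 differences of 0.0092 and 0.0014.

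**Figure D4:**
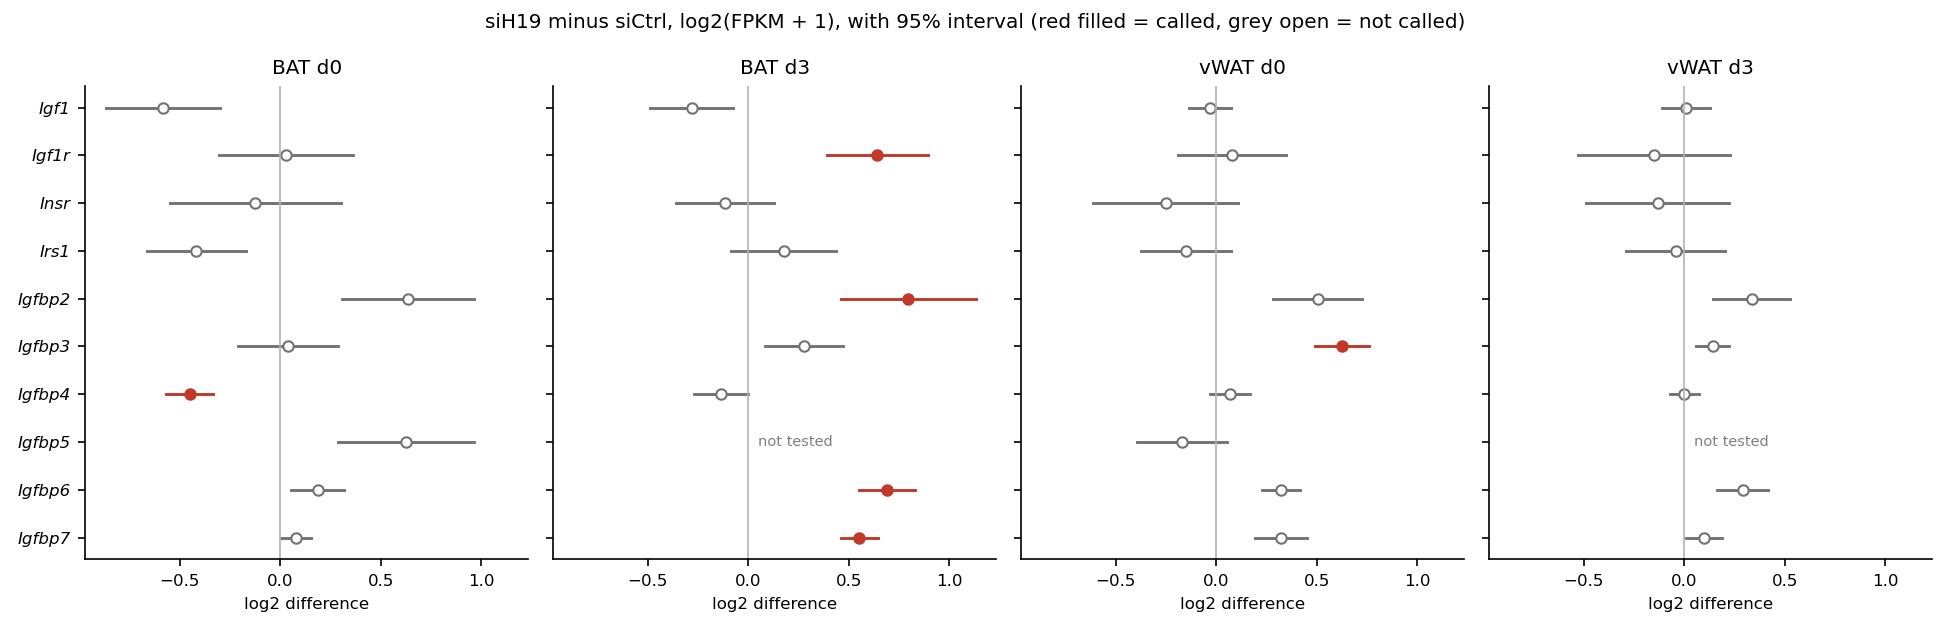
siH19 minus siCtrl in log2(FPKM + 1), as points with 95% intervals (n = 3 against 3), in BAT and vWAT at d0 and d3; red filled points were called, grey open points were not, and *Igfbp5* was not tested at d3. The 4 called genes of BAT at d3 lie between 0.55 and 0.80, and no gene is called in vWAT at d3.

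Interaction terms tested whether the siRNA effect differed by depot or day. At d3 it differed between depots for 3 of 10 genes, each higher in BAT, where 10.5% of all genes were called, 7.02% higher and 3.52% lower: *Igf1r* (0.79, SE 0.20, adjusted p = 0.0287, limma), *Igfbp6* (0.40, SE 0.08, adjusted p = 0.0102, limma) and *Igfbp7* (0.45, SE 0.05, adjusted p = 0.00148, limma). *Igfbp2* (0.46, adjusted p = 0.118, limma) was not called, so its siRNA effect was not shown to differ between depots, and *Igf1* (-0.29) was called only without BAT siH19 replicate 3 (-0.37, adjusted p = 0.0175, limma). The *Igf1r* term was lost without any of 8 of the 12 libraries, with adjusted p of 0.0514 to 0.0714 from limma: BAT siCtrl replicates 2 and 3, BAT siH19 replicates 2 and 3, vWAT siCtrl replicates 2 and 3, and vWAT siH19 replicates 1 and 3. At d0 the siRNA effect differed between depots for 1 of 10 genes, where 1.02% of all genes were called and 0.569% called lower: *Igfbp4* (-0.52, SE 0.06, adjusted p = 0.0102, limma). *Igfbp3* (-0.59) and *Igfbp5* (0.79) each had adjusted p = 0.0533 from limma, and *Igfbp5* was called without BAT siCtrl replicate 2 (0.95, adjusted p = 0.0189, limma). Within BAT it differed between days for 4 of 10 genes, where 9.06% of all genes were called and 7.79% called higher. All 4 terms were positive, that is, siH19 minus siCtrl was larger at d3 than at d0.

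These 4 genes were *Igfbp7* (0.47, adjusted p = 0.000658, limma), *Igfbp6* (0.50, adjusted p = 0.00409, limma), *Irs1* (0.59, adjusted p = 0.0292, limma) and *Igfbp4* (0.32, adjusted p = 0.0307, limma). *Igfbp6* and *Igfbp7* are secreted carriers, whereas *Irs1* is the intracellular docking protein below both receptors. For *Irs1* and *Igfbp4*, siH19 lay below siCtrl at d0 (-0.42 and -0.45), and neither was called at d3, so no rise at d3 is shown for them. The terms of *Irs1* and *Igfbp4* were lost after TMM scaling (0.53, adjusted p = 0.0592, and 0.24, adjusted p = 0.109, limma). Leaving out single libraries also ended them. The *Irs1* term was lost without any of siCtrl d0 replicates 1, 2 and 3, siCtrl d3 replicates 2 and 3, siH19 d0 replicate 1 or siH19 d3 replicates 1 and 2 (adjusted p of 0.055 to 0.0644, limma). The *Igfbp4* term was lost without any of siCtrl d0 replicates 1, 2 and 3, siCtrl d3 replicates 1 and 3, siH19 d0 replicates 1 and 3 or siH19 d3 replicates 2 and 3 (adjusted p of 0.051 to 0.0683, limma). *Igf1r* (0.62, adjusted p = 0.0607, limma) was not called in all 12 libraries, and was without siH19 d0 replicate 2 (0.75, adjusted p = 0.0187, limma). The same test called 5 of 7 adipocyte and 3 of 7 precursor markers higher and 3 of 6 brown adipocyte markers lower, and between depots at d3 it called 5 of 7 adipocyte and 4 of 6 brown adipocyte markers lower and 2 of 7 precursor markers higher. Their part in these terms was not tested.

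The balance of the 2 receptors can be read within each library. *Insr* over *Igf1r* was 0.402, 0.455 and 0.563 in BAT siCtrl at d0 and 11.2, 12.4 and 9.94 at d3, so that the mean ratio at d3 was 23.7-fold that at d0. With siH19 it was 0.304, 0.431 and 0.537 at d0 and 6.33, 5.97 and 4.79 at d3. At d3 the siH19 ratios were all below the controls, at 0.509 times their mean (exact permutation test, two-sided p = 0.1, the smallest possible). In vWAT siCtrl the ratio was 1.00 to 1.05 at d0 and 3.22 to 5.23 at d3, a 4.06-fold difference of means, and siH19 gave 0.661 to 0.962 and 3.31 to 5.31. There the siRNA groups overlapped at d3 (exact permutation p = 0.7). The ratio combines genes that were tested one by one above, and *Insr* itself was not called between siH19 and siCtrl in any depot or day.

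*Igf1* against its carriers gave a second ratio. Per 100 FPKM of binding proteins, *Igf1* was 1.15, 1.42 and 1.49 in BAT siCtrl at d0 and 4.37, 4.91 and 4.81 at d3, without overlap. With siH19 it was 0.875, 0.926 and 1.10 at d0 and 2.85, 3.01 and 3.39 at d3, below the controls at both days (0.716 and 0.656 times, exact permutation p = 0.1 each, the smallest possible). In vWAT it was higher and moved less, at 6.86 to 7.28 with siCtrl and 5.64 to 5.93 with siH19 at d0, and 5.86 to 6.47 and 5.66 to 6.10 at d3 (overlapping, exact permutation p = 0.3). The binding protein sum with siH19 was 0.917 times the control in BAT at d0, 1.25 times in BAT at d3, 1.19 times in vWAT at d0 and 1.06 times in vWAT at d3, with no overlap in any (exact permutation p = 0.1 each, 24 comparisons of ratios and sums in all, so that no Benjamini-Hochberg adjusted value can fall below 0.1).

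**Figure D5:**
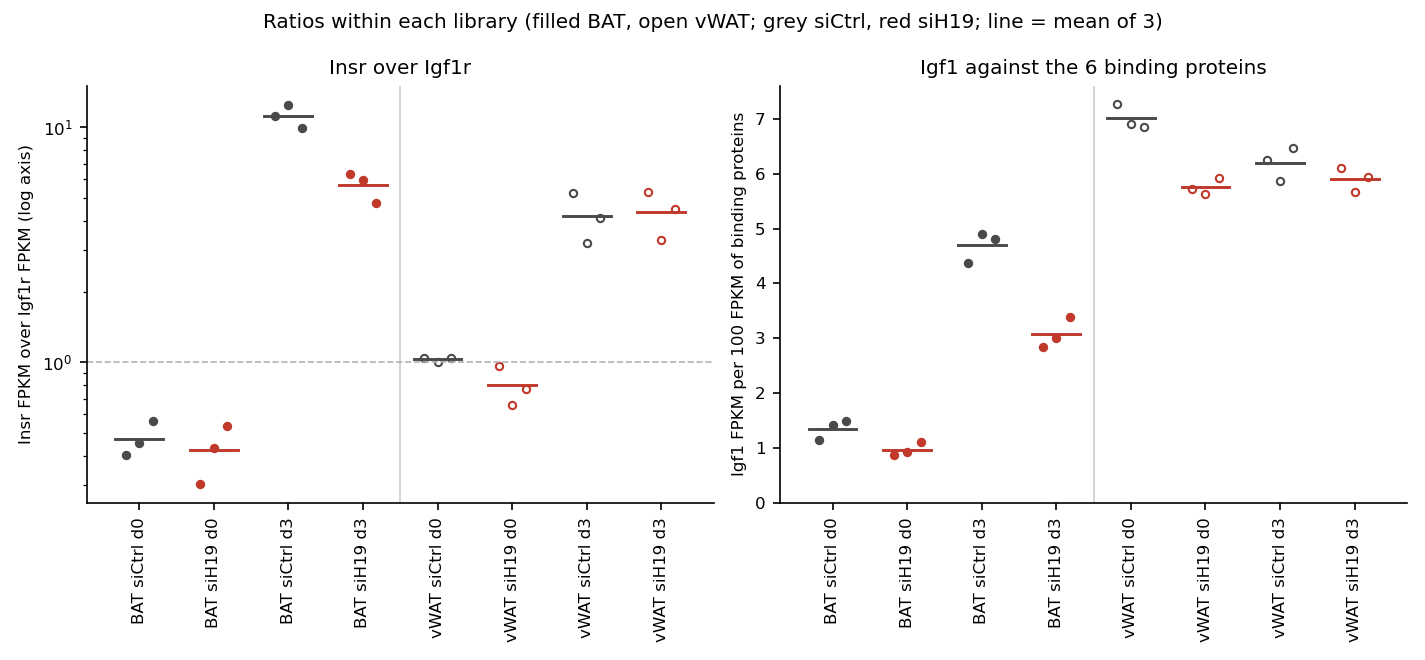
*Insr* over *Igf1r* (left, log axis, dashed line at 1) and *Igf1* FPKM per 100 FPKM of the 6 binding proteins (right, linear axis from 0) in each library; filled points are BAT, open points vWAT, grey siCtrl, red siH19, lines are means of 3. In BAT at d3 the siH19 libraries lie below the siCtrl libraries in both panels, with mean receptor ratios of 5.69 and 11.2.

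The rest of the insulin and IGF pathway was followed through a list of 59 further genes, of which 52 passed the filter in at least 1 of the 8 pairwise comparisons and 37 were called in at least 2. *Igfals*, *Igfbp1*, *Igfbpl1*, *Ins1*, *Ins2*, *Insrr* and *Irs4* passed in none. From d0 to d3, 19 of 51 tested were higher and 19 lower in BAT, and 15 and 13 of 51 in vWAT, with medians of -0.07 and -0.01, against -0.10 and 0.01 over all genes. Of all genes, 29.9% were higher and 35.3% lower in BAT and 26.3% and 23.9% in vWAT, and nothing particular to the list is read from these counts or from those of its classes. The values that follow are log2 differences of d3 against d0 in siCtrl cultures, BAT first and vWAT second.

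Of 9 AKT targets 7 were higher and 1 lower in BAT and 6 higher in vWAT, and of 10 adaptors tested 5 were higher and 1 lower in BAT and 3 higher in vWAT, where 29.9% of all genes were higher in BAT and 26.3% in vWAT. Higher levels in both depots were found for the glucose transporter *Slc2a4* (4.85, 3.34), the cyclic nucleotide phosphodiesterase *Pde3b* (4.41, 2.45), the AKT substrate *Tbc1d4* (2.29, 0.78), the lipogenic enzyme *Acly* (1.07, 1.11) and the transcription factor *Foxo1* (1.74, 1.05). They were also found for the kinase *Akt2* (1.43, 0.63), the regulatory subunit *Pik3r1* (2.02, 1.55) and the adaptors *Sh2b2* (2.64, 1.45) and *Irs3* (1.88, 2.16), all called in both depots. In BAT, *Irs3* passed the filter only through d3 (4.60 to 4.95 FPKM, against 0.380 to 0.784 at d0). In vWAT it also needed d3 to pass (6.27 to 8.18 FPKM, against 0.682 to 1.05 at d0). So did *Slc2a4* in vWAT (19.6 to 28.1 FPKM, against 0.966 to 2.15 at d0). A higher call was favoured in each. *Irs2* (1.63, 0.26), *Mtor* (1.35, 0.17), *Gsk3a* (0.91, 0.30), *Pdpk1* (0.47, -0.26) and *Rptor* (0.44, -0.15) were called higher in BAT and not in vWAT, *Pik3r3* (-0.07, 0.54) and *Pik3r2* (-0.09, 0.57) the reverse, and *Foxo4* (0.39, 0.81) in both. *Inppl1* (-0.45, -1.37), *Rheb* (-0.86, -0.87) and *Phlpp1* (-0.86, -0.61) were called lower in both depots, while *Foxo3* (-0.48, 0.37) and *Shc1* (-0.84, -0.09) were lower in BAT and not called in vWAT.

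Of 8 genes listed as inhibitors of the receptors or of signalling below them, 6 fell and 1 rose in BAT, and 4 fell and 1 rose in vWAT, where 35.3% and 23.9% of all genes were called lower. *Enpp1* (-2.84, -2.92), which blocks insulin receptor activation, *Ptprf* (-1.88, -0.94), *Ptpn1* (-0.93, -0.81) and *Socs1* (-1.35, -0.82) were called lower in both depots, and *Socs3* (-1.15, 0.20) in BAT. The adaptor inhibitor *Grb14* (-1.28, 1.12) was lower in BAT and higher in vWAT, *Trib3* (0.55, -0.23) was called higher in BAT alone, and *Grb10* (-0.32, -0.21) was not called with day but was lower in BAT than in vWAT (-1.05 at d0, -1.16 at d3). Among proteases of binding proteins and their inhibitors, *Htra1* (-3.34, -1.02), *Pappa* (-1.31, -1.80) and *Stc1* (-2.96, -1.12) were lower at d3 in both depots and *Stc2* (-0.81, -0.24) in BAT. *Pappa*, the protease of *Igfbp4*, averaged 2.86 and 0.559 FPKM in BAT and 6.01 and 1.02 in vWAT. In BAT it passed the filter only through d0 (2.77 to 2.96 FPKM, against 0.383 to 0.765 at d3). So did *Stc1* in vWAT (1.57 to 2.28 FPKM, against 0.234 to 0.434). In vWAT *Pappa* also needed d0 to pass (5.52 to 6.59 FPKM, against 0.849 to 1.14). The same held in BAT for *Socs1* (3.18 to 4.59 FPKM, against 0.941 to 1.07) and *Enpp1* (12.6 to 14.1, against 0.776 to 1.12). It held in BAT for *Stc2* too (2.42 to 2.94 FPKM, against 0.975 to 1.25). A lower call was favoured in each. The second ligand *Igf2*, the imprinted neighbour of *H19*, averaged 42.5 and 14.6 FPKM in BAT siCtrl and 4.48 and 2.25 in vWAT siCtrl. *Igf2r*, which clears IGF2, averaged 10.1 and 8.15 FPKM in BAT and 9.39 and 6.84 in vWAT, and was called in vWAT (-0.41) and not in BAT (-0.29).

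Between depots 5 of 50 list genes were higher and 13 lower in BAT at d0, and 14 and 14 of 50 at d3, where 10.2% and 21% of all genes were called at d0 and 16.5% and 32.1% at d3. *Igf2* was the ligand that ran opposite to *Igf1*, higher in BAT by 2.99 log2 units at d0 and 2.28 at d3. With siH19, 3 of 51 list genes were lower in BAT at d0, where 1.32% of all genes were (*Irs2*, *Htra1* and *Stc1*, -0.53, -0.45 and -0.45, adjusted p = 0.0494 each, limma). At d3 in BAT, where 6.39% of all genes were higher and 2.18% lower, 1 of 50 was higher, *Htra1* (0.48), and 3 were lower, *Slc2a4* (-0.83), *Acly* (-0.82) and *Trib3* (-0.46). In vWAT, *Pde3b* was lower at d0 (-0.71), and 0 of 50 were called at d3 by limma, where 0.0305% of all genes were. There 8 had an unadjusted limma p under 0.05, and the share of all genes at that threshold was not taken. The list medians, -0.01, 0.03, -0.05 and -0.03 in BAT d0, BAT d3, vWAT d0 and vWAT d3, lay close to those over all genes (-0.03, 0.05, -0.03 and -0.01). *Igf2* (0.44 in BAT at d3, adjusted p = 0.098, limma), *Igf2r* and *Pappa* were not called with siH19 in any comparison in which they were tested.

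Genes whose level followed each of the 10 most closely over the 24 libraries were found among 8936 genes with a mean of at least 5 FPKM, by the mean absolute difference of log2(FPKM + 1) after centring each gene. For *Igfbp7* these were *Plpp1* (0.08) and *St3gal2* (0.09), where the median over all candidates was 0.62. *Igfbp4* was followed by the matrix genes *Adamts2* (0.18) and *Col3a1* (0.20), *Igfbp6* by the proteoglycan *Dcn* (0.20) and *Ccbe1* (0.27), and *Igfbp3* by *Cyp7b1* (0.32) and *Spon1* (0.34). *Igf1r* lay nearest to *Ada* (0.14) and *Kctd10* (0.14), *Insr* to *Atl3* (0.12) and *Hipk2* (0.13), *Igf1* to *Bcl3* (0.19) and *Prickle1* (0.24), and *Igfbp2* to *Cryab* (0.17) and *Gata2* (0.22). *Irs1* lay nearest to *Ptrf* (0.10) and *Lmo4* (0.13), and *Igfbp5* to *Ccdc80* (0.15) and *Kremen1* (0.16). The 24 libraries share depots, days and scaling, and *Col3a1* and *Dcn* are also among the precursor markers used above.

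The genes lie on 7 chromosomes of GRCm38. *Igfbp2* (ENSMUSG00000039323, chromosome 1, 72824503 to 72852474, plus strand) and *Igfbp5* (ENSMUSG00000026185, chromosome 1, 72857932 to 72874884, minus strand) are tail to tail, 5457 bases apart with no gene between. *Igfbp2* ran highest in vWAT siH19 d0 (51.2 FPKM) and *Igfbp5* in BAT siH19 d0 (3.54 FPKM). *Igfbp3* (ENSMUSG00000020427, chromosome 11, 7206086 to 7213923, minus strand) has *Igfbp1* 3539 bases away in the same arrangement. *Irs1* (ENSMUSG00000055980) spans 82233101 to 82291416 on chromosome 1, *Igfbp4* (ENSMUSG00000017493) 99041244 to 99054392 on chromosome 11, and *Igf1* (ENSMUSG00000020053) 87858265 to 87937042 on chromosome 10. *Igf1r* (ENSMUSG00000005533) spans 67952827 to 68233668 on chromosome 7, *Insr* (ENSMUSG00000005534) 3122061 to 3279617 on chromosome 8, *Igfbp6* (ENSMUSG00000023046) 102144362 to 102149511 on chromosome 15 and *Igfbp7* (ENSMUSG00000036256) 77349240 to 77408041 on chromosome 5. *Igfbp7* shares 85 exonic bases with *Polr2b* on the opposite strand.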

How the data were processed

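RNA-seq was performed on 24 libraries in 8 groups of 3. The authors deposited 1 table of gene values, read here as FPKM although its header names no unit, made with TopHat2 2.0.10 on GRCm38.p5 and Cufflinks 2.2.1 per the labels. The study's methods give another Cufflinks release, and no counts were used here. FPKM are scaled per library, so a gene's value also moves with the make-up of its library; replicate libraries correlated at 0.988 to 0.991 across genes (Pearson's r of log2(FPKM + 1)), and 100 genes with a median of at least 5 FPKM were listed at 0 in some library, though none described here was. *H19*, whose symbol cell is blank, was found by its Ensembl identifier.

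Groups were compared on log2(FPKM + 1) with limma 3.58.1 (intensity trend, R 4.3.3) in the libraries compared only, over genes with at least 1 FPKM in at least 3 of them, with Benjamini-Hochberg adjustment over all genes tested. Genes were called at adjusted p under 0.05 and at least 1.3-fold, and interactions at adjusted p under 0.05 alone. Fold changes on this scale understate those of low genes. The script was tested on simulated data with 200 genes of known change. Alternatives were a pseudocount of 0.1, no filter, no minimum fold (for interactions, a minimum), trimmed-mean (TMM) scaling, 1 fit to all 24 libraries, the replicate number as a block, and leaving out each library. For ratios and sums an exact permutation test, two-sided, was used.

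The text names all 10 genes, *H19*, genes of a 59-gene pathway list called in at least 2 of the 8 pairwise comparisons (with *Igf2*, *Igf2r*, *Irs2* and *Pappa* in any case; some genes of the list are counted but not reported here by name), and the 2 most similar genes for each of the 10 whose group means ranged over at least 1 log2 unit. The genes, lists and markers were chosen with earlier results of these data known. Positions are Ensembl gene bounds in GRCm38, and promoter windows are from RefSeq (GRCm38.p6). Motifs were searched on both strands.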

Additional observations from a re-analysis of the deposited data

Results flagged for a closer look

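The change from d0 to d3 in siCtrl cultures differed between BAT and vWAT, by a tested interaction, for *Igf1r* (-1.31 log2 units, BAT minus vWAT), *Insr* (0.91), *Igfbp3* (-1.45), *Igfbp4* (-2.42), *Igfbp6* (-1.99) and *Igfbp7* (-1.43). For *Igfbp3*, *Igfbp4* and *Igfbp6* the difference was negative in BAT and positive in vWAT. The effect of siH19 differed between depots at d0 for *Igfbp4* (-0.52) and at d3 for *Igf1r* (0.79), *Igfbp6* (0.40) and *Igfbp7* (0.45). Within BAT it differed between d3 and d0 for *Irs1* (0.59), *Igfbp4* (0.32), *Igfbp6* (0.50) and *Igfbp7* (0.47). The *Igf1r* term at d3 was no longer called in 8 of the 12 fits that left out 1 library (adjusted p = 0.0514 to 0.0714, limma), and within BAT the *Irs1* and *Igfbp4* terms were not called in 8 and 9 of 12. After TMM scaling the *Irs1* and *Igfbp4* terms were not called (adjusted p = 0.0592 and 0.109, limma). With no filter on low values none of these 3 terms was called (0.0699, 0.071 and 0.068 for *Igf1r*, *Irs1* and *Igfbp4*, limma adjusted p), and with the replicate block neither *Igf1r* nor *Irs1* was (0.0549 and 0.0558). *Irs1* and *Igfbp4* had log2 differences of -0.42 and -0.45 at d0 and of 0.18 and -0.13 at d3. No group had enough libraries for a search for single outlying ones.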

How the results depend on the processing

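Of 117 differences of the 10 genes, 555 of 585 values under 5 settings (the pseudocount, no filter, TMM, the fit to all 24 and the replicate block; the minimum fold changes calls and no value) and 861 of 933 without 1 library kept their direction and side of the threshold. The number of the 10 genes called with siH19 in BAT at d0 (1) became 0 without the filter, 5 in the fit to all 24 libraries and 0 to 1 without 1 library. In vWAT at d0 (1) it became 3 without the minimum fold (265 of all 13063 genes tested), 2 with TMM scaling and 2 in the fit to all 24. For d3 against d0 in vWAT (4) it became 9 without the minimum fold (8788 of all 13368 genes tested). For depot by siRNA at d0 (1) it became 2 with TMM, 5 in the fit to all 24 and 1 to 2 without 1 library, and for day by siRNA in BAT (4) 2 without the filter, 2 with TMM and 2 to 5 without 1 library. With TMM, *Igf1* changed sign for siH19 in vWAT at d0 (0.0098), and *Insr* for depot by siRNA at d3 (-0.045) and day by siRNA in BAT (-0.061). The cause was not tested.

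None of these signs that turned belonged to a call. Without 1 library, siH19 in BAT at d0 spanned -0.11 to 0.15 for *Igf1r*, -0.27 to 0.064 for *Insr* and -0.024 to 0.12 for *Igfbp3*, and siH19 in vWAT -0.051 to 0.00082 for *Igf1* at d0 and, at d3, -0.023 to 0.046 for *Igf1*, -0.093 to 0.020 for *Irs1* and -0.019 to 0.020 for *Igfbp4*. *Irs1* spanned -0.0083 to 0.085 for d3 against d0 in vWAT, *Igf1* -0.13 to 0.032 for depot by day, *Igf1r* -0.19 to 0.073 and *Insr* -0.021 to 0.32 for depot by siRNA at d0, and *Insr* -0.10 to 0.18 for depot by siRNA at d3 and -0.18 to 0.16 for day by siRNA in BAT.

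Over all genes, siH19 calls in BAT at d0 (245) were 35 without the filter, 395 without the minimum fold, 526 in the fit to all 24 and 4 to 74 without 1 library. They were 2023 without the minimum fold and 631 to 916 without 1 library in BAT at d3 (1071). In vWAT they were 65 without the filter, 378 in the fit to all 24 and 37 to 122 without 1 library at d0 (200), and 15 in the fit to all 24 and 1 to 5 without 1 library at d3 (4). Depot calls at d0 (4096) were 6386 without the minimum fold. Depot by siRNA calls were 85 without the filter, 302 in the fit to all 24 and 35 to 110 without 1 library at d0 (140), and 924 with a minimum fold and 889 to 1432 without 1 library at d3 (1451). Day by siRNA calls in BAT (1230) were 801 to 1091 without 1 library. TMM moved the split of higher and lower calls with siH19 in vWAT at d0 from 43 and 157 to 62 and 128, for depot by siRNA at d3 from 966 and 485 to 665 and 676, and for day by siRNA in BAT from 1058 and 172 to 617 and 259.

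Replicate numbers did not pair the libraries: same-numbered libraries correlated at -0.113 to 0.062 after removal of group means, and in 0 of 8 comparisons did every library correlate best with its own number. With the number as a block, 0 of the 10 genes were called with siH19 in BAT at d0 and 0 in vWAT at d0, while calls over all genes were 2, 2, 0 and 81 for siH19 in BAT at d0, vWAT at d0, vWAT at d3 and for depot by siRNA at d0. The unknown depth gives no counting error, so *Igfbp5* and *Irs1*, the lowest of the 10 genes, rest on the spread of 3 libraries alone.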
